A study of Homo sapiens with 15 samples.

Results

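The SOX9 mutant M228 was compared with wild-type SOX9 by RNA sequencing of poly(A) RNA from HT115, an established line of human colorectal cancer cells. The comparison uses 6 of the 15 libraries of the series, 3 labelled M228 and 3 labelled as wild-type SOX9 (SOX9_WT below). It takes in every gene that passed an expression filter, which were 16160 of the 60671 genes in the count table. All 5 groups of the series (GFP as the control protein, SOX9_WT, M228, M303 and M379) carried a construct switched on by doxycycline, and all received 0.5 µg/ml of it for 24 h. The controls therefore share the drug, its dose and its duration with the mutants, and HT115 as the cell line of origin. Each construct sits in its own cells, so differences between those cells cannot be told apart from the construct. The SOX9 protein is V5-tagged, per the labels, and M303 is a truncated form. The sources used here do not give the change that M228 names, or whether each line is 1 clone. They speak of duplicates in one place, while the labels give 3 libraries a group. Separate cultures are not mentioned for these 3, so p-values reflect only the spread between libraries, and that spread may be technical.

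SOX9 is a transcription factor with a high mobility group (HMG) domain that binds short DNA sites and bends them. In the intestine it is expressed at the base of the crypt, in stem, progenitor and Paneth cells, where WNT signalling keeps it on, and Paneth cells are not formed without it. In cartilage it switches on collagen genes together with SOX5 and SOX6. SOX9 is recurrently mutated in colorectal cancer.

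The 6 libraries held 7291596 to 19781935 reads assigned to genes, and levels are given as CPM, the reads of a gene scaled to a common library total. A count of 0 allows a level of up to 0.152 CPM in the deepest of the 6 and 0.411 CPM in the shallowest. These limits cover counting error only and treat reads as independent. Each mate of a pair was counted singly, so the true limits are higher. The epithelial markers were all present, with a sum over 12 genes of 13670 to 17800 CPM in SOX9_WT and 15880 to 21600 CPM in M228. Of 11 leukocyte, 9 fibroblast, 8 endothelial and 8 neural markers, 10, 7, 7 and 7 stayed under 1 CPM in all 6 libraries, and genes with no read included MS4A1, CD3E, CD3D, PDGFRA, THY1, EMCN, CDH5, ELAVL4 and S100B. Summed levels in SOX9_WT and M228 were 46.4 to 61.3 and 45.8 to 58.7 CPM for the leukocyte list (LYN alone averaged 51.0 and 51.2 CPM), 3.91 to 4.88 and 5.36 to 6.33 CPM for the fibroblast list and 2.10 to 3.25 and 1.73 to 2.20 CPM for the endothelial list. For the neural list they were 0.668 to 1.69 and 1.15 to 2.397 CPM, and for 6 erythroid markers 7.38 to 9.44 and 4.22 to 6.77 CPM. The fibroblast and erythroid sums did not overlap between the groups, and their part in the results was not tested. Outside this pair the GFP libraries were the most uneven, with a median dispersion of 0.0967 against 0.0103 in SOX9_WT and 0.0211 in M228. Ribosomal protein genes took 7.21% of the reads of GFP replicate 2 and 3.71% to 4.90% in each of the other 14 libraries.

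SOX9 itself (ENSG00000125398, GRCh38 chr17:72121020-72126416, plus strand) stood at 243, 210 and 186 CPM in the SOX9_WT libraries and at 1900, 2032 and 2383 CPM in M228. The groups did not overlap, and the lowest M228 library lay far above the highest SOX9_WT library. The log2 fold change was 3.31 with a standard error (SE) of 0.19 (edgeR adjusted p = 2.69e-07). GFP libraries held 97.6, 100.8 and 158 CPM, all below the SOX9_WT libraries. SOX9_WT minus GFP was 0.84 (SE 0.18, edgeR adjusted p = 0.110), so SOX9 was not called there. M228 minus GFP was 4.14 (SE 0.20, edgeR adjusted p = 1.77e-08). The count table has 1 row for SOX9, so reads of the induced copy and of the cell's own gene cannot be told apart. The form of SOX9 and its read level both differ between the groups, and the 2 cannot be told apart in this design.

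Against SOX9_WT, 92 genes were called, meaning an edgeR quasi-likelihood adjusted p under 0.05, which is 0.569% of the genes tested. Of these 46 were higher in M228 (0.285% of the genes tested) and 46 lower (0.285%). The words rose and fell below set M228 against SOX9_WT and do not say which group differs from GFP. The groups of 3 libraries did not overlap for any of the 92, a pattern seen in 15.7% of all genes tested, and 6.65% of all genes had an unadjusted p under 0.05. In RNA from a whole culture, fewer cells that express a gene and less RNA per cell cannot be told apart. The median log2 fold change was 1.59 among those called higher and -1.32 among those called lower, against 0.01 over all genes tested, and 72 of the 92 changed more than 2-fold. Protein-coding genes made up 85 of them, with 6 long noncoding RNAs and 1 without a type. The naming rule, which takes SOX9, the 15 largest changes each way above a mean log2 CPM of 1, and called members of gene lists, gives 22 of the higher and 21 of the lower genes. The other 24 higher genes changed by at least 0.59 on the log2 scale, and the other 25 lower genes by -2.76 to -0.68.

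**Figure D1:**
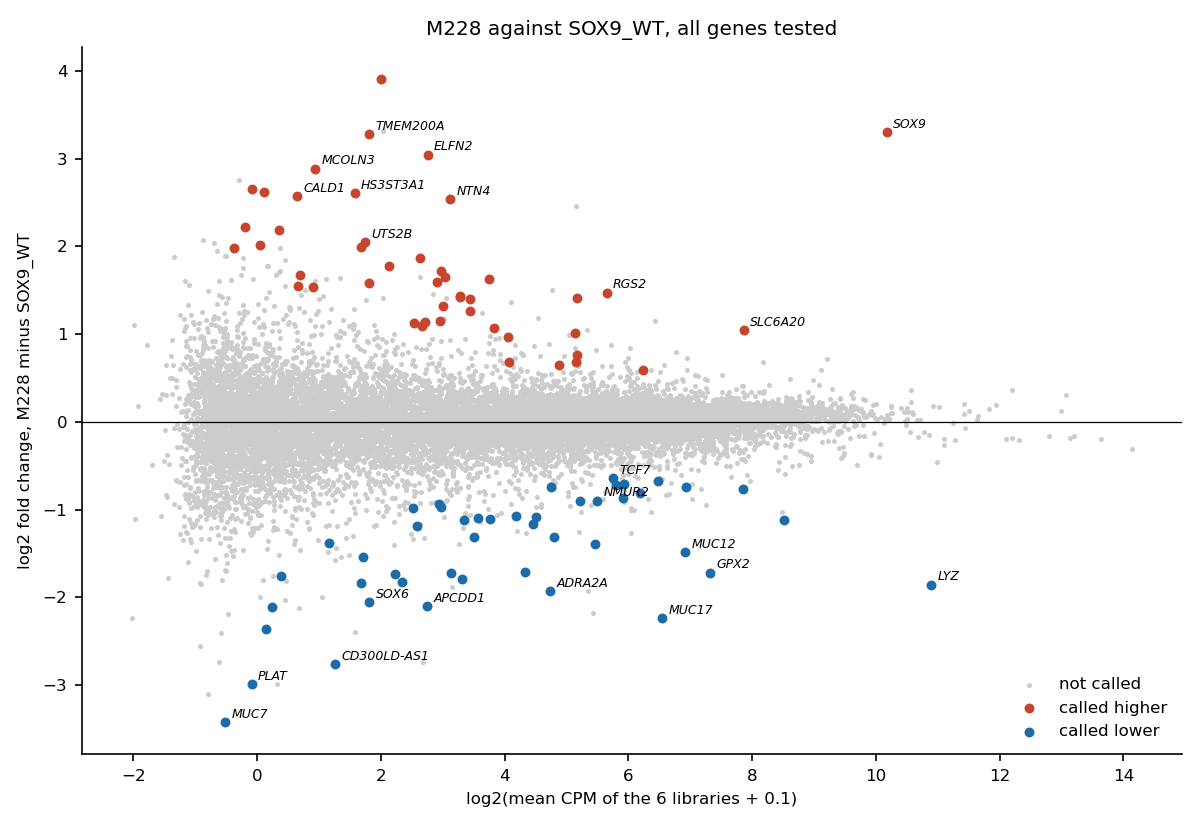
Each point is 1 of the 16160 genes tested, with the mean level over the 6 libraries (log2 CPM, x axis) and the log2 fold change of M228 minus SOX9_WT (y axis). The 46 genes called higher are red, the 46 called lower blue. SOX9 is the most abundant gene called higher and LYZ the most abundant called lower.

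The number of genes called moved with the libraries that entered the fit. The 15 libraries share 1 estimate of spread, and without GFP replicate 2 the same fit called 269 genes, while replicates 2 and 3 of every group alone gave 21, of which 16 are among the 92. Both settings were chosen after seeing the data. With 1 of the 6 libraries left out, 27 to 44 genes were called, the fewest without SOX9_WT replicate 2, and 20 of the 92 stayed called in all 6 of these fits while 25 stayed in none.

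Of the genes called higher, 7 named ones encode secreted or matrix proteins, grouped here by description and not by a list. The share of such genes among all genes tested was not computed. Named lower genes of this kind include WNT11, LYZ, PLAT, SBSPON and MUC7. Of 12 tested members of the list of collagens and interstitial matrix, none was called higher and SBSPON was called lower, with 9 below 0 and a median of -0.27. NTN4, a netrin that binds laminin in basement membranes, stood at 1.95, 3.19 and 2.48 CPM in SOX9_WT and at 12.2, 15.5 and 16.3 CPM in M228. All 3 M228 libraries also lay above the GFP libraries (2.43, 2.47 and 5.69 CPM). The log2 fold change against SOX9_WT was 2.54 (SE 0.29, edgeR adjusted p = 0.000636). TNFRSF11B, which encodes osteoprotegerin, the soluble decoy receptor for the ligand RANKL, was at 3.50, 4.28 and 3.82 CPM in SOX9_WT and 7.43, 15.8 and 13.6 CPM in M228. M228 replicate 1 was the lowest of the M228 libraries and still above every SOX9_WT and GFP library (log2 fold change 1.65, SE 0.31, edgeR adjusted p = 0.0240). VCAN, the large matrix proteoglycan versican, was at 4.43, 4.34 and 1.81 CPM in SOX9_WT and at 16.9, 12.1 and 6.89 CPM in M228. Replicate 3 was the lowest library of both groups, and the groups did not overlap (1.72, SE 0.36, edgeR adjusted p = 0.0460).

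TGFB3, a ligand of the TGF-beta family, rose from 1.70, 0.814 and 1.05 CPM to 3.40, 6.78 and 4.86 CPM (1.99, SE 0.38, edgeR adjusted p = 0.0240). GFP replicate 1 held 3.65 CPM, so the M228 libraries overlapped GFP here. UTS2B, the urotensin 2B peptide, averaged 1.32 ± 0.52 CPM in SOX9_WT and 5.17 ± 0.75 CPM in M228 (SD, n = 3). SERPINE2, a serpin that blocks thrombin and urokinase outside the cell, rose from 25.4, 23.5 and 20.2 CPM to 45.6, 54.9 and 40.2 CPM. Its log2 fold change was 1.02 (SE 0.15, edgeR adjusted p = 0.00476), and the GFP libraries lay with SOX9_WT at 23.1 to 29.6 CPM. SEMA3F, a secreted semaphorin that repels growing axons and vessels, rose from 27.0, 26.5 and 26.5 CPM to 48.2, 42.5 and 44.3 CPM (0.76, SE 0.16, edgeR adjusted p = 0.0459). Of these 7 genes, NTN4 and SERPINE2 stayed called whichever of the 6 libraries was left out, TNFRSF11B, VCAN and TGFB3 in 1 of 6 fits, and UTS2B and SEMA3F in none.

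Receptors and other membrane proteins were among both the higher and the lower genes. On the higher side, ELFN2, a leucine-rich repeat protein of neuronal membranes, was at 1.31, 1.97 and 0.955 CPM in SOX9_WT and at 12.6, 12.1 and 10.96 CPM in M228, with 1.96 to 2.20 CPM in GFP. The 3 M228 libraries were close to each other and far above the rest (3.05, SE 0.26, edgeR adjusted p = 3.37e-05). For TMEM200A, a transmembrane protein of little known function, the wild-type libraries gave 8, 5 and 14 reads, the M228 libraries 74, 55 and 105. Its log2 fold change of 3.28 (SE 0.42, edgeR adjusted p = 0.00183) became 4.01 without SOX9_WT replicate 3, the library with the most reads among the wild type. ITGA9, an integrin alpha chain that binds tenascin and osteopontin, rose from 7.10, 5.56 and 4.97 CPM to 19.03, 14.8 and 12.99 CPM (1.40, SE 0.23, edgeR adjusted p = 0.00981). ITGA5, the fibronectin receptor chain, rose from 4.02 ± 0.76 to 8.84 ± 1.89 CPM (n = 3), while GFP libraries held 7.496 to 9.67 CPM. In the case of ITGA5 the M228 libraries thus lay at the GFP level and SOX9_WT below it. JCAD, a protein of endothelial cell junctions, was at 6.61 ± 1.45 CPM in SOX9_WT and 20.2 ± 6.01 CPM in M228. ELFN2 and TMEM200A stayed called in all 6 leave-one-out fits, ITGA9 in 3 and ITGA5 and JCAD in 1.

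Among the enzymes, HS3ST3A1, which adds 3-O-sulfate groups to heparan sulfate, rose from 0.681, 0.882 and 0.860 CPM to 3.65, 6.07 and 5.14 CPM (2.61, SE 0.35, edgeR adjusted p = 0.00245). MAOB, a mitochondrial monoamine oxidase, rose from 2.24, 3.12 and 2.48 CPM to 7.37, 11.6 and 9.94 CPM (1.87, SE 0.32, edgeR adjusted p = 0.0131). AKR1C1, a steroid and aldehyde reductase, was at 5.199 ± 0.51 CPM in SOX9_WT and 14.1 ± 0.37 CPM in M228. Its sequence is nearly shared with AKR1C2 (7.10 against 12.4 CPM, log2 fold change 0.78, edgeR adjusted p = 0.289), so the split of reads between them is uncertain. HS3ST3A1 stayed called in all 6 leave-one-out fits, MAOB in 1 and AKR1C1 in none.

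Inside the cell, RGS2, which shortens signalling of Gq-coupled receptors, was at 26.1, 28.2 and 25.3 CPM in SOX9_WT and at 55.1, 98.0 and 68.6 CPM in M228. M228 replicate 2 stood above the other 2 (1.47, SE 0.24, edgeR adjusted p = 0.0108), and after SOX9 this was the most abundant of the named higher genes. EHD2, an ATPase at the neck of caveolae, rose from 4.82, 5.22 and 5.64 CPM to 11.4, 14.7 and 15.9 CPM (1.43, SE 0.18, edgeR adjusted p = 0.00183). Reads of CALD1 (caldesmon, an actin and myosin binding protein) numbered 16, 2 and 2 in the wild type against 37, 19 and 46 in M228. Its log2 fold change of 2.57 rose to 3.93 without SOX9_WT replicate 1, which held most of the wild-type reads. CALD1 was higher still in the other mutants, with means of 7.5 CPM in M303 and 4.4 CPM in M379 against 2.55 CPM in M228. CLGN, a chaperone of the endoplasmic reticulum, rose from 0.90 ± 0.07 to 2.64 ± 0.41 CPM, and the long noncoding RNA LNCAROD from 1.87 ± 0.52 to 6.70 ± 2.296 CPM. The mean of CLGN was 3.96 CPM in M303 and 3.31 CPM in M379, and that of LNCAROD 3.02 and 3.11 CPM. EHD2 stayed called in all 6 leave-one-out fits, RGS2 in 2, CALD1 in 1 and CLGN in none.

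**Figure D2:**
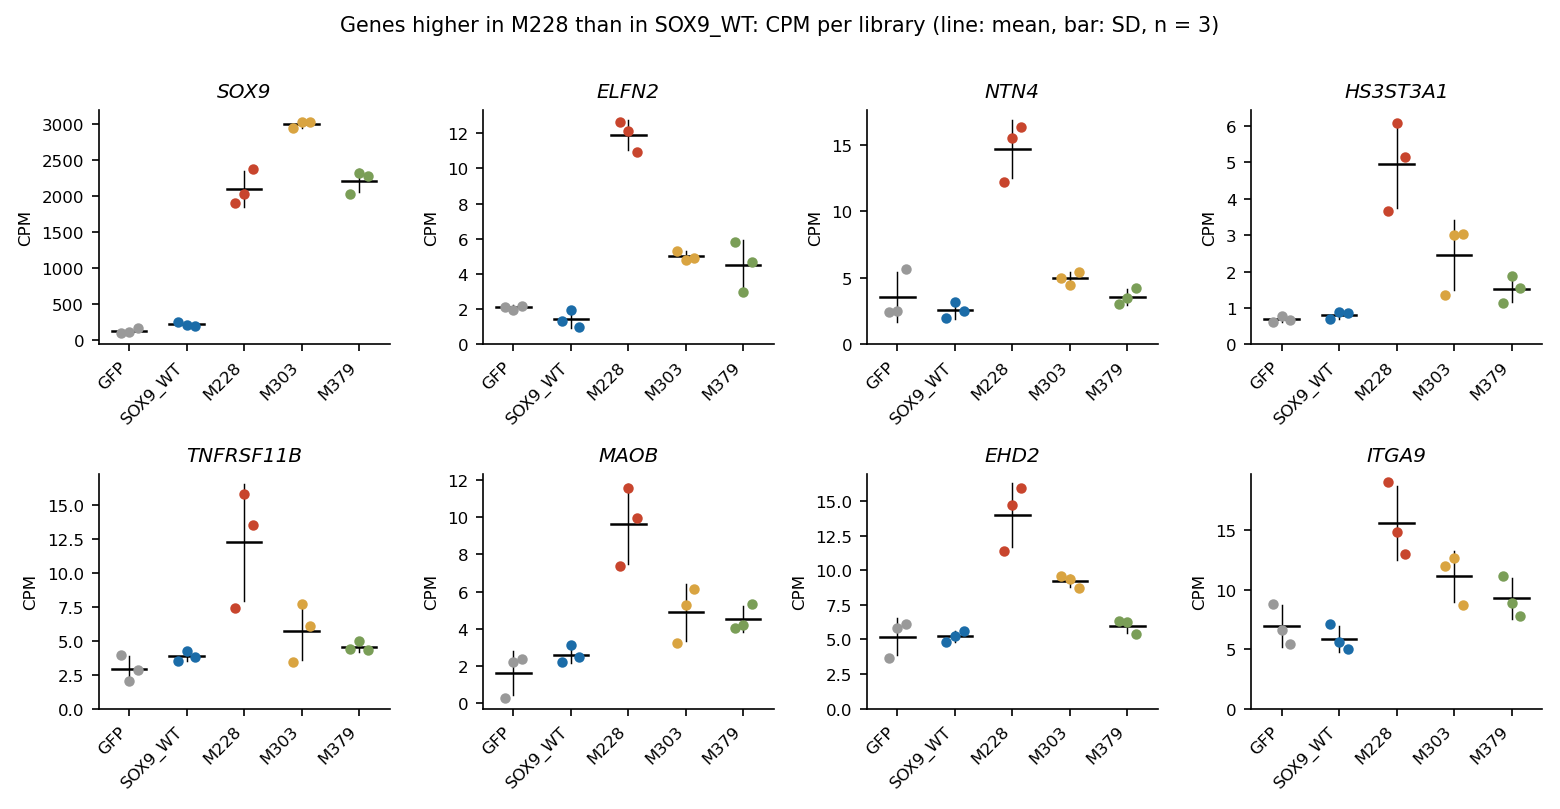
CPM per library (y axis) in the 5 groups (x axis) for SOX9 and 7 genes higher in M228 than in SOX9_WT, with the mean (line) and SD (bar, n = 3). In each panel the 3 M228 points lie above all SOX9_WT points, and for NTN4 they run from 12.2 to 16.3 CPM.

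Of 29 tested genes on the list of G protein-coupled receptors, 3 were called, each lower in M228, beside 0.569% called over all genes tested. Outside that list, and picked with their values known, the adhesion receptor ADGRF4 rose (1.09, edgeR adjusted p = 0.0177) and GPR55 fell (-0.98, edgeR adjusted p = 0.0291), each called in 0 of 6 leave-one-out fits. ADRA2A, the alpha-2A adrenergic receptor, was at 44.9, 45.2 and 36.0 CPM in SOX9_WT and at 12.7, 9.60 and 10.7 CPM in M228 (-1.92, SE 0.17, edgeR adjusted p = 3.37e-05). CXCR4, the receptor for the chemokine CXCL12, fell from 8.03, 6.92 and 6.21 CPM to 1.86, 2.26 and 2.32 CPM (-1.73, SE 0.23, edgeR adjusted p = 0.00245). NMUR2, a neuromedin U receptor, fell from 54.2, 63.8 and 57.8 CPM to 29.3, 32.9 and 32.3 CPM (-0.90, SE 0.11, edgeR adjusted p = 0.00149). ADRA2A, CXCR4 and NMUR2 stayed called in all 6 leave-one-out fits. They differed in where GFP lay. ADRA2A in M228 was below the GFP libraries (20.1 to 32.2 CPM), and so was NMUR2 (37.9 to 41.1 CPM), while CXCR4 overlapped them (1.82 to 3.92 CPM). M228 minus GFP was -1.33 for ADRA2A (edgeR adjusted p = 0.00375). For NMUR2 it was -0.34 and not called (edgeR adjusted p = 0.317), and SOX9_WT minus GFP was 0.56, not called either (edgeR adjusted p = 0.105).

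A ligand, an inhibitor and a transcription factor of WNT signalling were lower in M228 than in SOX9_WT. WNT11, a ligand that mostly signals without beta-catenin, went from 18.7, 10.3 and 10.9 CPM to 4.49, 3.53 and 4.01 CPM (-1.72, SE 0.24, edgeR adjusted p = 0.00288). SOX9_WT replicate 1 was the highest library, and without it the log2 fold change was still called. APCDD1, a membrane inhibitor of WNT, was at 13.9, 7.60 and 10.6 CPM in SOX9_WT and at 3.01, 2.54 and 1.98 CPM in M228. Its GFP libraries, at 0.68 to 3.35 CPM, overlapped M228, and SOX9_WT minus GFP was 2.735 (SE 0.38, edgeR adjusted p = 0.0227). TCF7, a partner of beta-catenin on DNA, fell from 68.6, 64.9 and 64.0 CPM to 39.6, 43.4 and 43.5 CPM. For WNT11 and TCF7 the GFP libraries lay between M228 and SOX9_WT, at 6.85 to 9.12 CPM and 44.1 to 53.9 CPM. The tight libraries of TCF7 made a log2 fold change of only -0.64 pass (SE 0.11, edgeR adjusted p = 0.0124), against -2.10 for APCDD1 (SE 0.34, edgeR adjusted p = 0.00981). WNT11 was called in all 6 leave-one-out fits, APCDD1 in 3 and TCF7 in 2.

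Mucins are the glycoproteins of the mucus layer and the cell coat. Of 10 tested genes on the mucin list, 3 were called, all lower, beside 0.569% called over all genes tested. MUC12 was at 164, 220 and 149 CPM in SOX9_WT and at 70.3, 61.6 and 59.0 CPM in M228 (-1.48, SE 0.24, edgeR adjusted p = 0.00914). Its neighbour MUC17, which starts 1123 bases away, was at 128, 213 and 122 CPM against 39.9, 29.5 and 28.2 CPM (-2.24, SE 0.44, edgeR adjusted p = 0.0292). In SOX9_WT both genes were highest in replicate 2. Both are membrane mucins of intestinal cells with long repeats, so the assignment of reads within the repeats is uncertain. GFP libraries ran from 108 to 127 CPM for MUC12 and from 17.04 to 100.1 CPM for MUC17, so M228 lay below GFP for the first and overlapped it for the second. M228 minus GFP was -0.92 for MUC12 and was not called (edgeR adjusted p = 0.15). MUC7, a secreted mucin of saliva, gave 24, 18 and 10 reads in the wild type but 3, 0 and 1 in M228, a level at or under the limit of 3 reads. MUC12 stayed called in 3 of the 6 leave-one-out fits, MUC7 in 2 and MUC17 in none (edgeR adjusted p from 0.0601 to 0.182).

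Of other secreted products, LYZ, the lysozyme of Paneth cells, fell from 3543, 2866 and 2567 CPM to 1013, 836 and 636 CPM (-1.85, SE 0.27, edgeR adjusted p = 0.00470). An opposite-strand gene covers 34.7% of its exon bases, and counting took no account of strand, so its value is uncertain. Reads of PLAT, the tissue plasminogen activator, numbered 48, 19 and 10 in the wild type, 2, 0 and 6 in M228 and 0, 3 and 2 in GFP. Its log2 fold change was -2.99 and became -4.08 without M228 replicate 3, which held most of the M228 reads. SBSPON, a small matrix protein with somatomedin B and thrombospondin domains, fell from 54.2, 51.8 and 38.1 CPM to 25.8, 29.8 and 22.0 CPM (-0.90, SE 0.15, edgeR adjusted p = 0.0127). LYZ stayed called in all 6 leave-one-out fits, PLAT in 3 and SBSPON in 2.

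Among enzymes, GPX2, the glutathione peroxidase of the gut epithelium, fell from 202, 277 and 260 CPM to 61.1, 79.4 and 84.1 CPM (-1.72, SE 0.28, edgeR adjusted p = 0.0106). In GFP it stood at 181, 483 and 228.2 CPM, all above M228. CYP4X1, a cytochrome P450, fell from 37.4, 24.2 and 31.1 CPM to 9.80, 6.50 and 11.4 CPM (-1.71, SE 0.23, edgeR adjusted p = 0.00288). SMPD3, a neutral sphingomyelinase, went from 20.9, 14.4 and 10.5 CPM to 5.25, 3.67 and 4.24 CPM (-1.79, SE 0.31, edgeR adjusted p = 0.0131). Its GFP libraries overlapped M228 at 3.75 to 8.21 CPM. CPS1, the first enzyme of the urea cycle, averaged 4.87 ± 1.07 CPM in SOX9_WT and 1.34 ± 0.11 CPM in M228. CA9, a carbonic anhydrase induced by low oxygen, went from 30.4 ± 3.58 to 13.5 ± 2.03 CPM, with 36.1% of its exon bases shared with the opposite strand. CYP4X1 stayed called in all 6 leave-one-out fits, GPX2 in 3, SMPD3 in 2 and CPS1 and CA9 in none.

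Of the named transcription factor genes, SOX6 and RUNX3 were also lower in M228 than in SOX9_WT. SOX6, the partner of SOX9 in cartilage, was at 9.05, 4.48 and 3.06 CPM in SOX9_WT and at 1.35, 0.989 and 1.58 CPM in M228. Its GFP libraries overlapped M228 at 0.596 to 1.285 CPM. SOX9_WT replicate 1 stood apart, and without it the log2 fold change of -2.06 became -1.49 and the call was lost (edgeR adjusted p = 0.222). RUNX3, a Runt factor that is silenced in many gut tumours, fell from 4.96, 4.95 and 4.39 CPM to 1.22, 0.989 and 2.43 CPM (-1.54, SE 0.27, edgeR adjusted p = 0.0131). GFP libraries held 3.95 to 4.71 CPM of RUNX3, with SOX9_WT and above M228. TPPP on chromosome 5 and TPPP3 on chromosome 16, which encode related proteins that bundle microtubules, both fell. TPPP went from 76.2, 62.8 and 51.5 CPM to 24.1, 27.8 and 20.96 CPM (-1.39, SE 0.19, edgeR adjusted p = 0.00288), and TPPP3 from 7.93, 6.58 and 8.41 CPM to 1.92, 3.11 and 1.75 CPM (-1.82, SE 0.27, edgeR adjusted p = 0.00476). Both stayed called in all 6 leave-one-out fits, RUNX3 in 2 and SOX6 in 1.

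**Figure D3:**
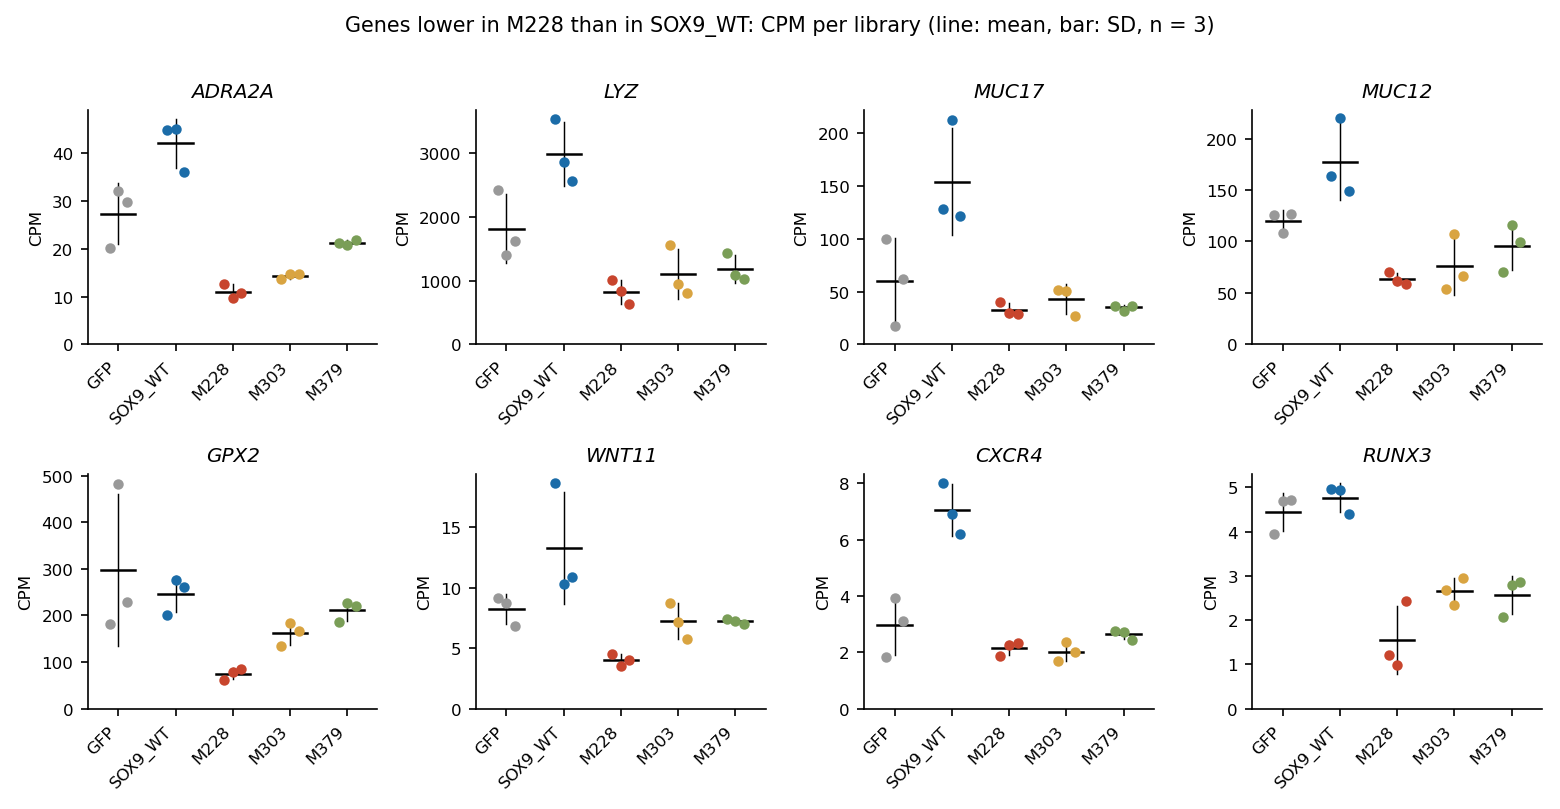
CPM per library (y axis) in the 5 groups (x axis) for 8 genes lower in M228 than in SOX9_WT, with the mean (line) and SD (bar, n = 3). All M228 points lie below all SOX9_WT points. They also lie below the 3 GFP points for all but MUC17 and CXCR4, where they overlap them.

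Against GFP, 39 genes were called in M228 by edgeR (0.241% of the genes tested), 33 higher and 6 lower. This comparison shares the M228 libraries with the one above. Values for some named genes, picked with their values known, stand side by side as follows. ELFN2 was 3.05 against SOX9_WT and 2.50 against GFP (edgeR adjusted p = 0.000703), and NTN4 2.54 and 1.94 (edgeR adjusted p = 0.00746). VCAN was 1.72 and 2.73, MAOB 1.87 and 2.27 and TNFRSF11B 1.65 and 2.15 on the log2 scale, each called in both. Not called against GFP were the named higher genes TGFB3, UTS2B, SEMA3F, ITGA5, JCAD, AKR1C1, RGS2, CALD1, CLGN and LNCAROD. Their values against GFP ran from 0.07 for ITGA5 to 2.11 for UTS2B (edgeR adjusted p = 0.940 and 0.0652). Among lower genes ADRA2A was -1.92 and -1.33 (edgeR adjusted p = 0.00375), GPX2 -1.72 and -1.996 (edgeR adjusted p = 0.00592) and RUNX3 -1.54 and -1.47 (edgeR adjusted p = 0.0404). LYZ was -1.85 against SOX9_WT and -1.13 against GFP, where it was not called (edgeR adjusted p = 0.105). APCDD1 was -2.10 against SOX9_WT and 0.63 against GFP, SOX6 -2.06 and 0.42, and PLAT -2.99 and 0.27, none of them called against GFP. SOX9_WT minus GFP gave 5 calls among 16160 genes, 4 higher and 1 lower. APCDD1 was 1 of those higher (2.735, edgeR adjusted p = 0.0227). SOX6 and PLAT were not called there (2.48 and 3.26, edgeR adjusted p = 0.0795 for each).

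The promoters of 4 called genes are shown as examples, picked with their matches known. Each holds ACAAT (or ATTGT on the other strand), the core of the SOX recognition site, in the 250 bases before the RefSeq start. Other called genes hold the core there too, among them PLA2G4A, PMP22 and MUC7. The core is in capitals. Sequences are from RefSeq, GRCh38.p14, on the gene's strand, 5′ to 3′: NTN4 (chr12:95791156-95791405, minus strand), GPX2 (chr14:64942746-64942995, minus strand), SOX6 (chr11:16738478-16738727, minus strand) and CPS1 (chr2:210593105-210593354, plus strand). The RefSeq start lies inside the gene as the count table spans it, by 34 bases for NTN4, 160 for GPX2, 1114 for SOX6 and 115673 for CPS1, so the CPS1 window belongs to an internal start.
NTN4: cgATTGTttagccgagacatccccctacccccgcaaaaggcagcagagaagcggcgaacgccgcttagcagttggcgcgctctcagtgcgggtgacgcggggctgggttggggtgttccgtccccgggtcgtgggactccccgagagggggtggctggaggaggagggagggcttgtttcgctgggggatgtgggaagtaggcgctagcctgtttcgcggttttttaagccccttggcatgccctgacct
GPX2: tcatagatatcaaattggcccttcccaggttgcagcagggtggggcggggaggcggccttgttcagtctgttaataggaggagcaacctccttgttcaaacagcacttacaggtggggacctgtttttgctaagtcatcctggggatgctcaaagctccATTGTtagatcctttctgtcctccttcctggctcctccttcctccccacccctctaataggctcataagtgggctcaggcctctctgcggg
SOX6: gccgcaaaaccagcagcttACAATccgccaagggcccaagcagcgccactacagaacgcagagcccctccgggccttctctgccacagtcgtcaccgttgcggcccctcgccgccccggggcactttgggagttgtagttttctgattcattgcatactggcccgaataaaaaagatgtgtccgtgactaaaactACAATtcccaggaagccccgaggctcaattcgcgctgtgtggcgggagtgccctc
CPS1: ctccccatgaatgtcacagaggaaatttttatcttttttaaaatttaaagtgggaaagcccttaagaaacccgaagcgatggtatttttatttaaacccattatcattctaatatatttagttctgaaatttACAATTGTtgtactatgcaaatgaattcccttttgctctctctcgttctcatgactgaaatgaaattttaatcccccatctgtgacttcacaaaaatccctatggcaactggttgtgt

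NTN4, which rose, has 1 core at -248 from the start, and GPX2, which fell, has 1 at -91 that reads ACAATGG in full on the opposite strand. SOX6 holds 2 cores, at -231 and -55. In CPS1 a core on each strand overlaps in the run ACAATTGT, at -118 and -115. Over the RefSeq windows of 300 bases (250 before and 50 after the start, both strands), ACAAT occurred in 5 of 32 called higher genes with a window (15.6%) and in 8 of 34 called lower genes (23.5%). It occurred in 16.7% of the 11027 tested genes with a window and in 28.0% of all 27305 promoters in the table. ACAATGG, which contains ACAAT, was in 0 of 32 higher genes, in 1 of 34 lower genes and in 1.80% of the tested genes. For 15 of 66 called genes the RefSeq start lay over 1000 bases from the outer end of the gene in the count table. These matches describe letters and are not measured binding sites.

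Gene lists were described by how many members were called and by the median log2 fold change, beside 0.569% called and a median of 0.01 over all genes tested, of which 8407 were above 0 and 7753 below. The mucin list had the lowest median, -0.61 over 10 tested members, with 3 called lower, none called higher and 9 below 0. MUC1 and MUC13, both membrane mucins, were lower without being called (62.3 against 35.8 CPM and 2354 against 1710 CPM, edgeR adjusted p = 0.158 and 0.354). In the crypt stem cell list 13 of 17 members were below 0, with a median of -0.38, and none was called. AXIN2, a feedback inhibitor of WNT, was at 202 against 155 CPM (-0.38, SE 0.13), and CD44, a hyaluronan receptor, at 967 against 686 CPM (-0.50, SE 0.20), with edgeR adjusted p = 0.344 and 0.595. The WNT target list had 2 of 21 members called lower, APCDD1 and TCF7, and a median of -0.12. Its highest member, the secreted WNT inhibitor DKK1, stood at 14.1 against 40.2 CPM (1.499, SE 0.43, edgeR adjusted p = 0.195). The uncalled genes AXIN2, CD44, DKK1, MUC1 and MUC13 were picked as examples with their values known.

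The cartilage list of SOX9 targets had 6 tested members, all with a log2 fold change below 0, a median of -0.45 and SOX6 as its 1 called gene. The goblet cell list (11 members) had a median of -0.38 with none called, and the Paneth cell list (6 members) had 0.09 with LYZ called. Enterocyte and brush border genes went both ways, with 10 of 22 above 0, a median of -0.08 and MUC17 the 1 called. FABP2, a fatty acid binding protein of enterocytes picked with its values known, was at 2.31 against 4.39 CPM (0.90, SE 0.22, edgeR adjusted p = 0.0956). Integrins had 2 of 15 called higher at a median of 0.00, the laminin and basement membrane list 1 of 18 (NTN4) at 0.16, and the guidance list 2 of 38 (NTN4 and SEMA3F) at -0.06. The list of G protein-coupled receptors had a median of -0.02, with 13 of 29 above 0.

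The cell cycle and heat shock lists held no called gene. The mitosis and DNA replication lists had 16 of 19 and 21 of 23 members above 0, and medians of 0.13 and 0.15. All 14 heat shock genes were above 0 (median 0.19) and all 13 mitochondrial genome genes below 0 (median -0.19), the latter also with none called. Members of a list were measured in the same libraries and are not separate observations. The HOX cluster list had 17 of 21 above 0 at a median of 0.16 and none called. Of the 41 lists, 24 had no called gene.

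**Figure D4:**
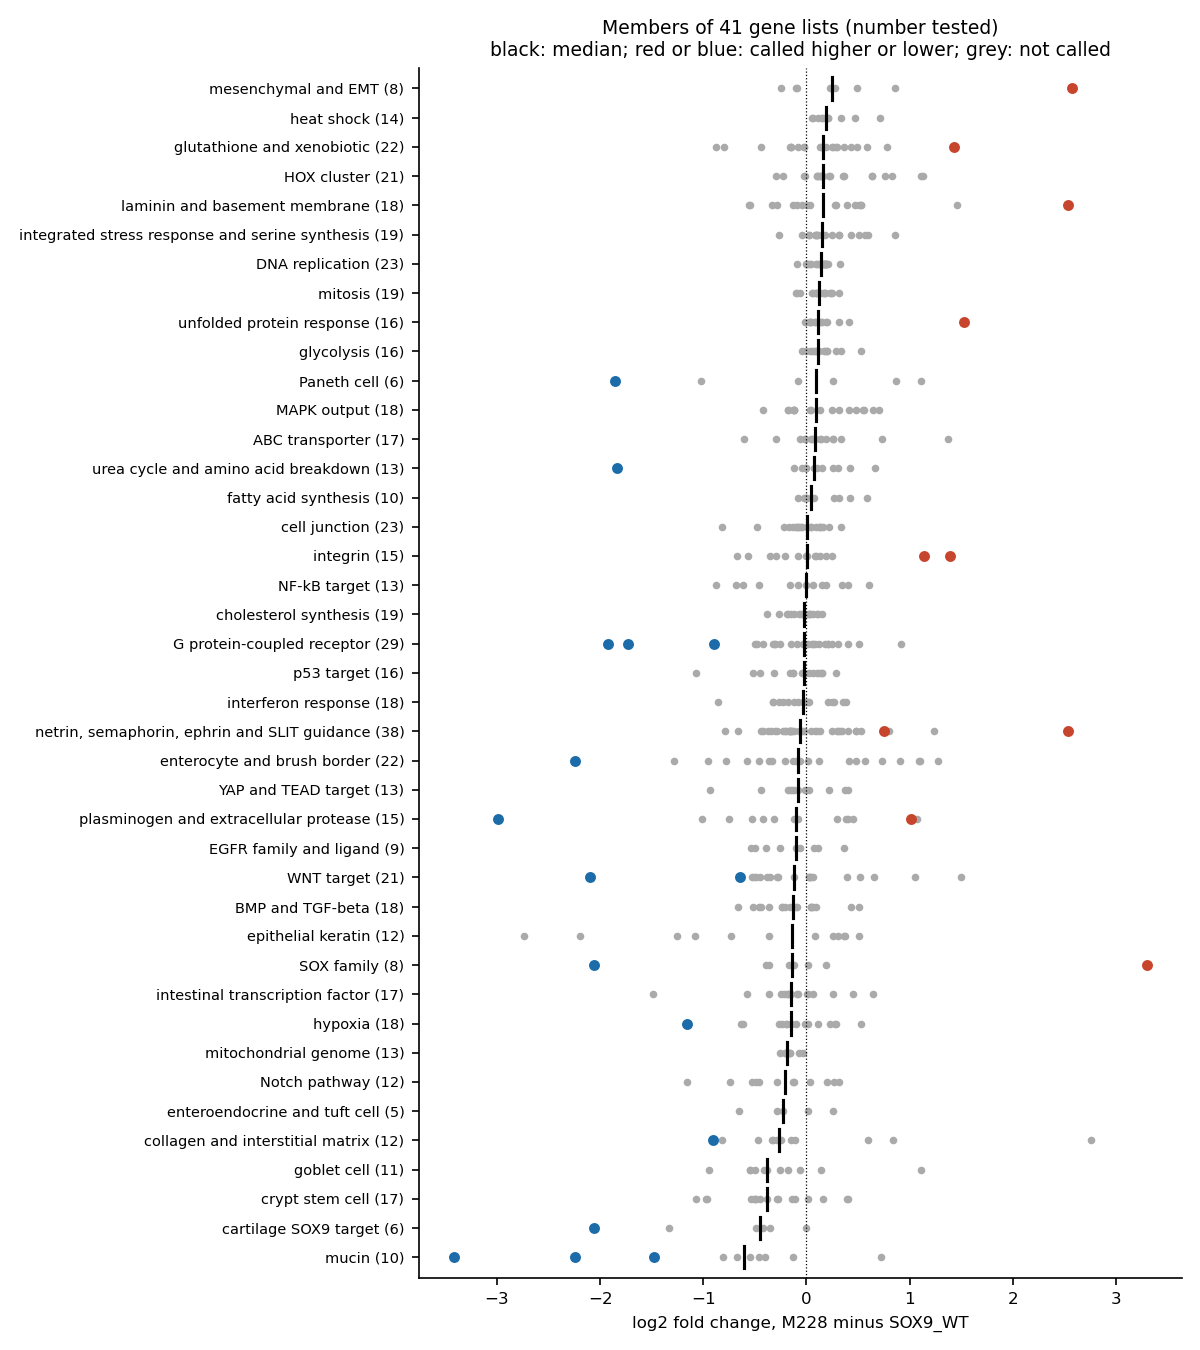
Log2 fold change of M228 minus SOX9_WT (x axis) for every tested member of 41 gene lists (rows, with the number tested), ordered by the list median (black line). Red and blue points are called genes. The mucin list is lowest at -0.61, and most lists centre near 0.

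PROM1, KRT20, LGR5, MKI67 and CDX2, markers of intestinal cell states taken in by name, were not called. PROM1, a stem-like marker, was at 120, 77.6 and 62.8 CPM in SOX9_WT and at 61.2, 37.0 and 34.1 CPM in M228 (-0.98, SE 0.30, edgeR adjusted p = 0.236). The groups did not overlap, by 62.8 against 61.2 CPM, and both were highest in replicate 1. KRT20, a keratin of mature colonocytes, was at 954, 1335 and 1004 CPM against 745, 1101 and 710 CPM (-0.37, SE 0.17, edgeR adjusted p = 0.771). LGR5, the R-spondin receptor of crypt stem cells, was at 68.1, 54.1 and 61.8 CPM against 46.0, 38.4 and 46.4 CPM (-0.49, SE 0.27, edgeR adjusted p = 0.898). MKI67, a protein of cycling cells, averaged 627 ± 38.7 CPM in SOX9_WT and 599 ± 91.1 CPM in M228, and CDX2, an intestinal homeobox factor, 307 ± 50.1 and 273 ± 54.9 CPM (n = 3 each).

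Many of the changes named above were not particular to M228. Against SOX9_WT, 62 of 16160 genes were called in M303 and 20 in M379. Named genes called in both of these as well as in M228 include ADRA2A, CXCR4, NMUR2, TPPP3, APCDD1, ELFN2, TMEM200A, CALD1 and CLGN. M228 was also set directly against the mean of the other 2 mutants, M303 and M379, which held SOX9 at 2034 to 3039 CPM. By edgeR 9 genes differed, 0.0557% of the genes tested, 8 higher in M228 and 1 lower. Against M303 alone 2 genes were called (0.0124%) and against M379 alone 7 (0.0433%). Of the 8 genes described, COL9A3 was called against both, NTN4, ELFN2, PKIB, EHD2 and SERPINE2 against M379 but not M303 (edgeR adjusted p from 0.0899 to 0.946 against M303), and CST6 and AQP3 against neither alone. CST6, PKIB, AQP3 and COL9A3 are outside the naming rule and were picked with these values known. PKIB, an inhibitor of protein kinase A, was at 48.9, 62.0 and 46.4 CPM in M228, 26.5 to 32.7 CPM in M303 and 21.04 to 24.2 CPM in M379 (1.03, SE 0.12, edgeR adjusted p = 0.00278). It also lay above SOX9_WT (17.1 to 21.4 CPM) and GFP (19.6 to 24.3 CPM). AQP3, a channel for water and glycerol, was at 24.0, 15.4 and 12.7 CPM in M228 and at 4.55 to 8.79 CPM in the 6 libraries of the other mutants. It was not called against SOX9_WT (7.07 to 11.1 CPM, 0.90, SE 0.27, edgeR adjusted p = 0.226).

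COL9A3, a chain of the cartilage collagen type IX, went the other way. M303 libraries held 15.1, 21.4 and 23.0 CPM and M379 libraries 11.6, 16.2 and 21.7 CPM, while M228 libraries held 3.14, 3.11 and 3.50 CPM. SOX9_WT libraries held 12.7, 5.90 and 5.64 CPM, all above M228, and GFP libraries 1.52 to 3.07 CPM, all below it. M228 minus the mean of the other mutants was -2.46 (SE 0.31, edgeR adjusted p = 0.00278). M228 minus SOX9_WT was -1.33 (SE 0.33, edgeR adjusted p = 0.109). SOX9 itself was at 2949 to 3039 CPM in M303 and 2034 to 2329 CPM in M379, against 1900 to 2383 CPM in M228.

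**Figure D5:**
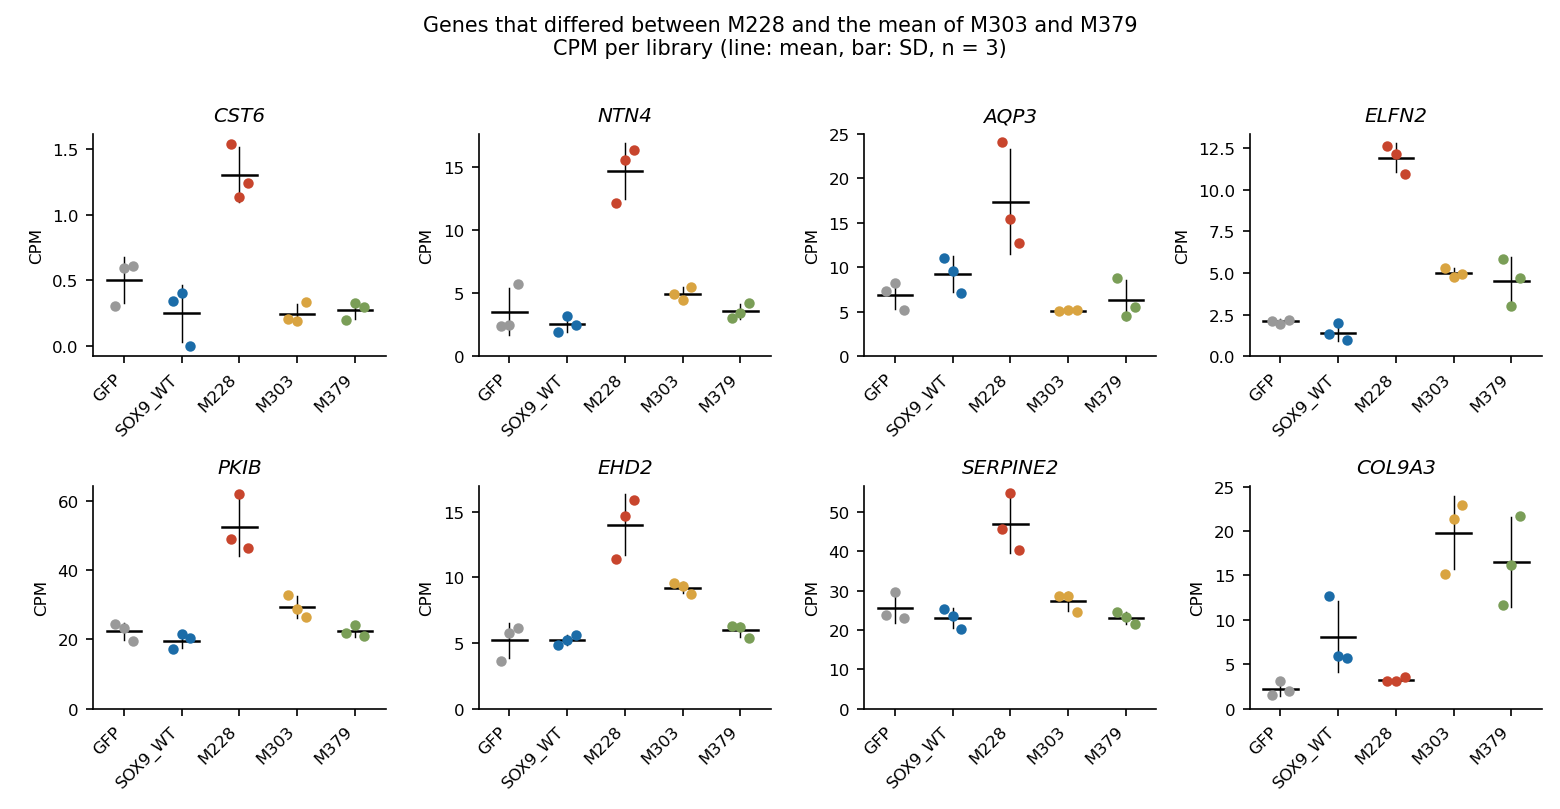
CPM per library (y axis) in the 5 groups (x axis) for 8 of the 9 genes that edgeR called between M228 and the mean of M303 and M379, with the mean (line) and SD (bar, n = 3). M228 is above both other mutants in 7 panels and below both in the COL9A3 panel, where it lies at 3.11 to 3.50 CPM.

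A few called genes are neighbours on the chromosome. Within 500 kb of each other lay 7 pairs among the 92 called genes (0.569% of the genes tested), each with both genes moving the same way. The rate of such pairs among all genes tested was not computed, so the number is not read as a regional effect. In 1 pair, SLC38A11 and the antisense gene ENSG00000236283, the genes overlap on opposite strands. Besides MUC12 and MUC17 these include TPPP and ZDHHC11B on chromosome 5, 17003 bases apart (log2 fold change -1.39 and -1.32), and LYZ and MYRFL on chromosome 12 (-1.85 and -1.32). CD82 and TP53I11 on chromosome 11 were at -1.09 and -0.81, and CES2 and TPPP3 on chromosome 16 at -0.72 and -1.82. MYRFL, CD82, TP53I11, CES2 and ZDHHC11B are outside the naming rule and were picked with their values known. ZDHHC11B has a near-identical copy in the genome, so its count is uncertain.

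Transporters outside the naming rule, also picked with their values known, moved in both directions. SLC6A20, a carrier of proline and other imino acids, rose from 142, 162 and 153 CPM to 268, 307 and 372 CPM (1.05, SE 0.18, edgeR adjusted p = 0.0140), with GFP at 117 to 190 CPM. SLC6A14, a carrier of neutral and cationic amino acids, fell from 2.58, 1.56 and 0.955 CPM to 0.192, 0.141 and 0.565 CPM (-2.36, SE 0.49, edgeR adjusted p = 0.0390). Its GFP libraries were at 0 to 0.367 CPM, overlapping M228. Of the called genes, 23 had a library of the 6 with under 10 reads, and a fit that asked for 10 reads in each of the 6 called 63 genes.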

How the data were processed

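The authors deposited raw counts of aligned reads per gene. Per the submitters' processing notes, paired reads of 150 bases went through STAR 2.7.0a with hg38 as the genome. Per the file headers, featureCounts 2.0.1 assigned them to genes of Ensembl release 101 (GRCh38). That command names neither a strand nor a pair option. Strands were thus pooled, each mate of a pair was counted singly, and by the tool's default reads over more than 1 gene were left out. How reads were trimmed was not stated in the sources used here. A deposited table of normalized values was not used, and 3 of its columns match no sample label.

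Here edgeR 4.0.16 in R 4.3.3 (filterByExpr, TMM scaling, quasi-likelihood tests, two-sided, Benjamini-Hochberg adjustment over 16160 genes) was fitted to all 15 libraries with a mean per group, leaving 10 residual degrees of freedom. Library totals ran from 3054755 to 31704249 reads, which sets the precision of low counts. M228 was tested against SOX9_WT, against GFP and against the mean of M303 and M379. DESeq2 1.42.0, other filters, other library sets and a replicate block were alternatives. The named genes were SOX9, the 15 called genes with the highest and the 15 with the lowest fold change among those that have a symbol, reach 1 in mean log2 CPM and show no overlap between the groups, each called member of 41 gene lists, and PROM1, KRT20, LGR5, MKI67 and CDX2. Some genes that meet these rules are not reported here. The members, lists and rule were chosen with earlier results of these data known. Steps were tested on simulated data. None of the 15 library pairs within the 5 groups agreed within sampling noise.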

Additional observations from a re-analysis of the deposited data

Results flagged for a closer look

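By edgeR's test, M228 differed from the mean of M303 and M379 for 9 genes, of which 8 are described. Set against each mutant alone, 1 of the 8 was called against M303 (COL9A3) and 6 against M379. The log2 difference was 2.34 for CST6, 1.80 for NTN4, 1.61 for AQP3, 1.32 for ELFN2, 1.03 for PKIB, 0.91 for EHD2 and 0.90 for SERPINE2, and it was -2.46 for COL9A3. With each M228 library left out in turn, NTN4, PKIB and COL9A3 were called in 3 of 3 fits, AQP3 and SERPINE2 in 2, EHD2 in 1 and CST6 and ELFN2 in 0. CST6, a secreted cysteine protease inhibitor, rests on few reads, 24, 8 and 22 in M228, 7, 5 and 7 in M303 and 3, 5 and 5 in M379. The SOX9_WT libraries held 7, 6 and 0.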

How the results depend on the processing

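The SOX9 difference kept its direction and call under every alternative run, from 3.20 without M228 replicate 3 to 3.48 with replicates 2 and 3 of every group only. For M228 minus SOX9_WT the 92 calls became 278 in a fit of the 6 libraries, 283 with GFP left out, 269 without GFP replicate 2, 216 with DESeq2, 320 with no filter on low counts, 21 with replicates 2 and 3 only, and 27 to 44 with 1 library left out. All 92 were also called with GFP left out, and DESeq2 called 91 of them. For M228 minus the mean of M303 and M379 the 9 calls became 18 with GFP left out, 24 without GFP replicate 2, 33 with DESeq2, 67 with no filter, 1 with replicates 2 and 3 only and 5 to 8 with 1 library left out. For M228 minus GFP the 39 calls became 163 with DESeq2, 282 with no filter, 25 with at least 10 reads in each library, 9 with replicates 2 and 3 only and 15 to 27 with 1 library left out, against 38 without GFP replicate 2. The cause of these shifts was not tested. MKI67 reversed, from -0.07 to 0.051, without M228 replicate 2, and lay between -0.16 and 0.051 over the fits with 1 library left out. Of the named genes' values under the alternatives, 618 kept direction and call, 164 lost the call, 7 gained it and 1 reversed. With a replicate block the 3 counts were 319, 44 and 181. Deviations of same-numbered M228 and SOX9_WT libraries correlated at 0.29, 0.06 and 0.22, and those of unlike number at -0.27 to 0.07. M228 replicate 2 correlated best with SOX9_WT replicate 3 (0.07). In every group replicate 1 had the highest TMM scaling factor (1.035 to 1.078). Whether the numbers mark a shared batch was not tested, and the main fit has no replicate term. Depth limits genes with few reads, and 23 of the 92 had under 10 in at least 1 of the 6 libraries.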

Other observations

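Further called genes of M228 minus SOX9_WT fall outside the naming rule and were picked with their values known. TBX2, a T-box repressor, stood at 0.195, 0.271 and 0.191 CPM in SOX9_WT and at 1.22, 1.84 and 1.36 CPM in M228 (2.66, SE 0.40, edgeR adjusted p = 0.00486), with 0 to 0.306 CPM in GFP. GRHL3, a grainyhead factor of surface epithelia, rose from 9.82, 10.2 and 7.07 CPM to 15.0, 21.04 and 21.1 CPM (1.06, SE 0.22, edgeR adjusted p = 0.0460). KIFAP3, the adaptor subunit of the kinesin-2 motor, rose from 12.7, 11.7 and 8.98 CPM to 20.8, 22.0 and 22.7 CPM (0.96, SE 0.14, edgeR adjusted p = 0.00525) and stayed called in all 6 fits with 1 library left out, against 0 of 6 for GRHL3. IFNGR2, a chain of the interferon gamma receptor, rose from 23.3, 22.4 and 22.6 CPM to 35.1, 38.4 and 33.5 CPM (0.65, SE 0.12, edgeR adjusted p = 0.0240).

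On the lower side, GPC4, a glypican that carries heparan sulfate at the cell surface, went from 31.9, 28.7 and 31.6 CPM to 16.7, 13.3 and 13.3 CPM (-1.09, SE 0.17, edgeR adjusted p = 0.00740). CD82, a tetraspanin known as a suppressor of metastasis, went from 16.1, 18.2 and 14.04 CPM to 8.14, 6.21 and 8.08 CPM, below the GFP libraries at 10.8 to 18.7 CPM. PLA2G4A, the phospholipase that frees arachidonic acid, went from 180, 143 and 137 CPM to 104, 85.9 and 85.8 CPM (-0.74, SE 0.15, edgeR adjusted p = 0.0439). PMP22, a membrane protein of myelin and epithelia, went from 28.6, 22.5 and 22.7 CPM to 9.87, 12 and 13.2 CPM (-1.08, SE 0.19, edgeR adjusted p = 0.0166), and the GFP libraries lay with M228 at 8.52 to 14.8 CPM. GPC4 stayed called in 5 of the 6 fits with 1 library left out, CD82 and PMP22 in 1 and PLA2G4A in 0.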
